A study of Mus musculus with 6 samples.

Results

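The interleukin-1 (IL-1) and IL-33 axis was followed in cultured murine renal tubular epithelial cells (mTECs) through 7 of the 22442 genes of the expression table. The genes were chosen by name: the ligands Il1a, Il1b and Il33, the antagonist Il1rn, and the receptor chains Il1r1, Il1rl1 and Il1rap. All 7 gene symbols were found in the table, and the rule itself uses no measured value. Il33 was the member that passed the test between the groups: in the cultures labelled as Stat3-silenced its level was 13.1 ± 0.38 FPKM (SD, n = 3) against 20.6 ± 0.891 FPKM (SD, n = 3) in the others, a 1.57-fold lower level. Il1rn, the most abundant member, differed by less than the spread between libraries, and the 5 remaining genes did not pass the test across all genes.

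The study asked which transcripts depend on Stat3, a transcription factor activated by cytokine receptors, in tubular cells exposed to LPS, a bacterial lipopolysaccharide. RNA was sequenced from 6 cultures, and all of them received LPS at 20 µg/ml for 24 h. In the group labelled LPS, 3 cultures carried a negative control, and in the group labelled LPSKD, described as silenced for Stat3, 3 cultures carried an siRNA by the labels, while the study's reagent list gives an shRNA for mouse Stat3. The mTEC line is described in the study as immortalised, whereas the labels speak of magnetic sorting, and no library without LPS was analysed here, so the values are levels under LPS and not responses to it. FPKM, the deposited unit, scales the fragments on a gene to its length and to the depth of the library, so levels of different genes are compared here per length.

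Signalling in this axis is opened by cytokines that dying or stressed cells can release. IL-1α and IL-1β bind the receptor encoded by Il1r1, IL-33 binds the receptor ST2 encoded by Il1rl1, and both complexes recruit the shared accessory chain encoded by Il1rap before they signal through Myd88 and the kinases of the Irak family to NF-κB. The receptor antagonist encoded by Il1rn occupies the IL-1 receptor without recruiting that chain. IL-1α and IL-33 are stored as nuclear proteins in epithelial cells and act as alarm signals when the membrane breaks, whereas IL-1β is made by inflammasome-activated myeloid cells in most settings and is cut by caspase-1.

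Each library held between 24084827 and 25422171 fragments. Stat3, the gene aimed at, did not distinguish the groups: its level was 34.6, 31.4 and 35.2 FPKM under the label LPS and 30.8, 35.2 and 34.3 FPKM under LPSKD (log2 fold change -0.01, limma adjusted p = 0.944). The study reports knockdown of Stat3 in mTECs by PCR and Western blot, which were not analysed here. Since the transcript of the targeted gene did not differ in these libraries, the groups are named below by their labels alone. They are called LPS libraries and LPSKD libraries, and no direction is ascribed to the loss of Stat3. Markers of epithelium were abundant, with Krt8 at 1158 to 1245 FPKM and Krt18 at 1158 to 1300 FPKM. Of the 20 epithelial and tubule markers, 4 stood at 0 in every library, namely Slc34a1, Umod, Calb1 and Aqp2, which define proximal tubule, thick limb, distal tubule and collecting duct.

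Il33 has a pair of transcription starts in RefSeq (GRCm38.p6), and the 250 bases before each are printed because Il33 is the member that passed the test. Capitals mark the letters TATAAA, the core of a TATA box, and both sequences are the + strand of chromosome 19, written 5′ to 3′. The upstream start follows chr19:29924863-29925112 and the downstream start follows chr19:29945540-29945789; neither stretch overlaps an annotated Il33 exon.
Il33 upstream start: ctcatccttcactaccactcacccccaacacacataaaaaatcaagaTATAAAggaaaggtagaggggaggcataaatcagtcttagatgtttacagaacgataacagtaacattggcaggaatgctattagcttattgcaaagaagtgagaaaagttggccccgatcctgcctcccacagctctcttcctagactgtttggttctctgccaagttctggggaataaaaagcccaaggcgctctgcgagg
Il33 downstream start: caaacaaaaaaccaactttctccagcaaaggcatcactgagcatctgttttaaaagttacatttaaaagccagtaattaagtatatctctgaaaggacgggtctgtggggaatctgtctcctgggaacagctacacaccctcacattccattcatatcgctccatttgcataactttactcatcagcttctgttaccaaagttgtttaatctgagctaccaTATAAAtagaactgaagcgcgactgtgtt

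The TATAAA letters lay at -29 to -24 before the downstream start and at -203 to -198 before the upstream one, counting the base just before the start as -1. They occurred, on either strand, in 5 of the 12 windows of the 7 genes, among them Il1a at -32 to -27 and Il1b at -31 to -26, and in 13.6% of the 32851 RefSeq windows of the same build that run from 250 bases before to 50 bases after a start. The STAT motif TTCNNNGAA was in 0 of the 12 and in 8.3% of all windows. The NF-κB motif was in 1 of the 12, that of Il1r1, at -232 to -223, and in 4.51% of all windows. The AP-1 motif TGANTCA was in 2 of the 12, at -141 to -135 for Il1rn and at -12 to -6 for Il1a, and in 7.81% of all windows. A match is a run of letters and not a measured binding site, the AP-1 and STAT patterns read the same on both strands, and only these windows were searched. Since the table holds 1 value per gene, transcripts from the separate starts of Il33 were not distinguished.

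Ordered by level over all 6 libraries, Il1rn came first at a mean of 49.6 FPKM, followed by Il33 at 16.8, Il1rl1 at 15.8, Il1rap at 3.76, Il1a at 1.4, Il1r1 at 1.07 and Il1b at 0.62 FPKM. The ranges of Il1rn, of Il1rl1 and of Il1rap lay wholly above those of their lower neighbours. The order of Il33 and Il1rl1 turned with the label: Il33 was the higher of the pair in all 3 LPS libraries, at 19.9 to 21.6 against 15.4 to 17.1 FPKM, and the lower in all 3 LPSKD libraries, at 12.7 to 13.4 against 14.6 to 16.4 FPKM. The 3 lowest genes ran into each other, with Il1a above Il1r1 in 4 of 6 libraries and Il1r1 above Il1b in 5 of 6. Il1rn was thus the most abundant transcript of the IL-1 arm per length, and the agonists and the receptor of that arm were close to the lower limit of what was tested.

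**Figure D1:**
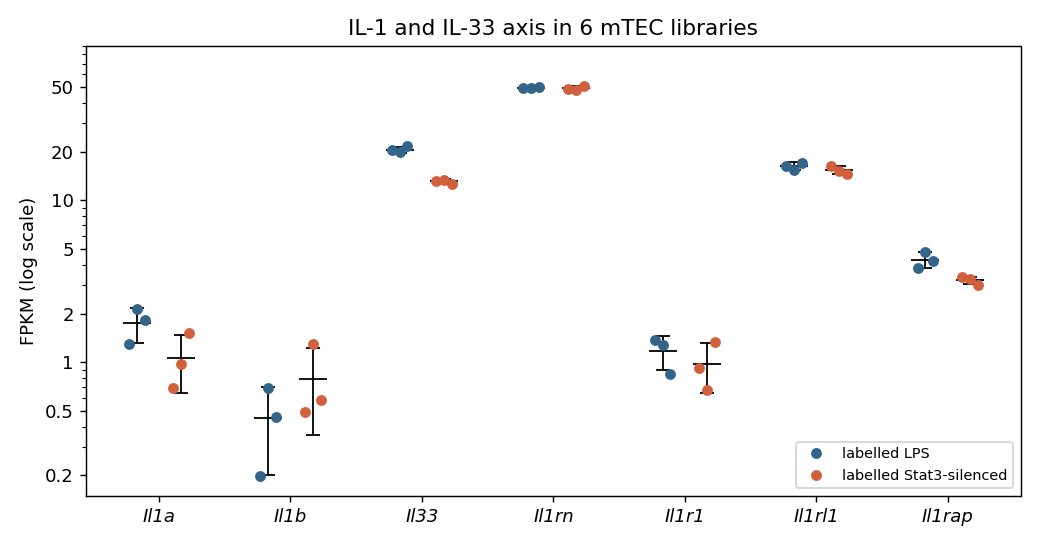
FPKM of the 7 genes (log axis) in each of the 3 LPS libraries (blue) and the 3 LPSKD libraries (orange, labelled Stat3-silenced), with the mean and SD of each group as black bars. The groups are apart for Il33 and Il1rap and overlap for the other 5 genes, beside 23.8% of all genes tested with groups apart.

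Each gene was compared between the groups with limma on log2(FPKM + 0.1), adjusted over all 11723 genes with a mean of at least 0.5 FPKM, which the 7 members all reached. Il1b reached it only through the LPSKD libraries, the group in which it was higher. At an adjusted p of 0.05, 3.23% of all genes tested were called in either direction and 1.66% were called lower in the LPSKD libraries. Among the members 1 of 7 was called, Il33. The median log2 fold change of the members was -0.25, beside -0.01 for all genes tested. An exact two-sided permutation test over the 20 assignments of the libraries was run for single genes; with 3 libraries a group it cannot give a p below 0.1.

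Among the ligands, Il33 (ENSMUSG00000024810, chr19:29925114-29960718, + strand in GRCm38) encodes the alarmin that ST2 recognises. Its level was 20.4, 19.9 and 21.6 FPKM in the LPS libraries and 13.1, 13.4 and 12.7 FPKM in the LPSKD libraries. All 3 LPS libraries were above all 3 LPSKD libraries, and the gap between the groups was wider than the range within either. These levels rested on 415 to 443 fragments per library against 270 to 275, and the coding sequence of Il33 shared no stretch of 31 bases with another gene. The log2 fold change was -0.65 with an SE of 0.06 and a 95% interval of -0.80 to -0.51 (limma adjusted p = 0.00134; exact permutation p = 0.1, the smallest possible). On the linear scale this is a change of -36.5%, with an interval of -42.6% to -29.7%. By size of change Il33 stood 65th among the 195 genes called lower, and by adjusted p it stood 43rd among all genes tested.

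Il1a (ENSMUSG00000027399, chr2:129299610-129309972, - strand) encodes IL-1α, the agonist that is active without cleavage. It stood at 1.29, 2.13 and 1.82 FPKM in the LPS libraries and at 0.692, 0.974 and 1.51 FPKM in the LPSKD libraries. The lowest LPS library lay under the highest LPSKD library, so the groups overlapped. The log2 fold change was -0.71 with an SE of 0.32 and an interval of -1.44 to 0.02 (limma adjusted p = 0.297; exact permutation p = 0.2). Only 14 to 43 fragments per library fell on Il1a, and the part of low counts in its SE was not tested. The point estimate was as large as that of Il33, but the SE was several times wider. The interval thus holds both no change and a change larger than that of Il33. In addition 25% of its coding stretches of 31 bases are shared with Gm14023, a gene on the opposite strand, and because no source used here states that the counting used strand, fragments of the pair cannot be told apart.

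Il1b (ENSMUSG00000027398, chr2:129364570-129371139, - strand) encodes IL-1β, the agonist released after pyroptosis. Its level was 0.199, 0.697 and 0.456 FPKM in the LPS libraries and 0.496, 1.29 and 0.585 FPKM in the LPSKD libraries. The groups overlapped, and the second LPSKD library was the highest. Il1b was the only member with a positive log2 fold change, 0.70 with an SE of 0.50, and its interval ran from -0.46 to 1.85 (limma adjusted p = 0.527; exact permutation p = 0.4). Over each group 27 and 47 fragments were counted, with exact Poisson intervals of 17.8 to 39.3 and 34.5 to 62.5 that cover counting error only. On the linear scale the interval of the difference spans -27.1% to 261% and includes no change. An antisense gene, Il1bos, overlaps Il1b, but the coding sequence of Il1b shared no stretch of 31 bases with another gene.

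The antagonist Il1rn (ENSMUSG00000026981, chr2:24336853-24351494, + strand) was measured with 655 to 732 fragments per library. Its level was 49.7, 49.4 and 50.3 FPKM in the LPS libraries and 48.7, 48.2 and 51.1 FPKM in the LPSKD libraries. The groups overlapped, with both the highest and the lowest value in an LPSKD library. The log2 fold change was -0.01 with an SE of 0.04 (limma adjusted p = 0.906; exact permutation p = 0.7). The interval of the difference, -0.11 to 0.08, is -7.43% to 5.96% on the linear scale. Il1rn has secreted and intracellular forms, which share this single value.

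The balance of antagonist to agonist was taken within each library, where the scaling of the library cancels, as the ratio of FPKM + 0.1. The Il1rn to Il1a ratio was 35.8, 22.2 and 26.3 in the LPS libraries and 61.6, 45.0 and 31.9 in the LPSKD libraries. Antagonist transcript thus exceeded Il1a transcript in every library, and the groups overlapped. On the log2 scale the ratio was 4.78 ± 0.35 (SD, n = 3) against 5.48 ± 0.48 (SD, n = 3), a difference of 0.69 (exact permutation p = 0.2). The Il1rn to Il1b ratio was 166, 62.2 and 90.6 in the LPS libraries and 81.9, 34.9 and 74.7 in the LPSKD libraries, with overlapping groups and a log2 difference of -0.71 (exact permutation p = 0.4). The ratios to the agonists thus leaned in opposite directions and neither was beyond the spread between libraries.

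**Figure D2:**
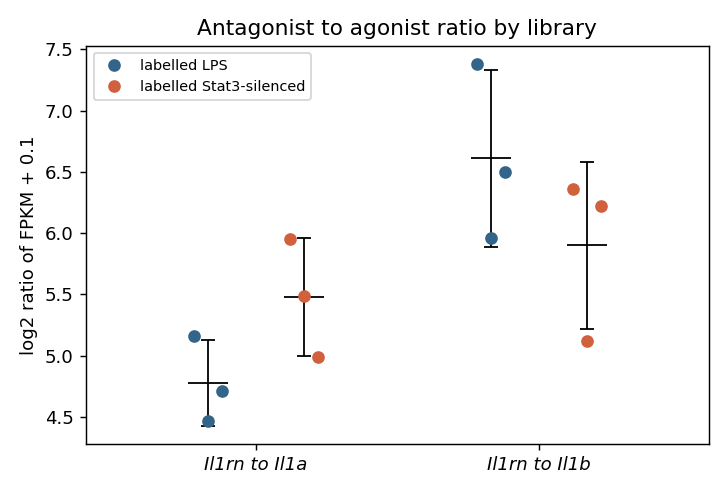
The log2 ratio of Il1rn to Il1a and of Il1rn to Il1b (FPKM + 0.1) in each library, with blue points for LPS libraries, orange points for LPSKD libraries, and the mean and SD of each group (n = 3) as black bars. The Il1a ratio averages 4.78 and 5.48, and the Il1b ratio 6.61 and 5.90; in both, the groups overlap.

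Of the receptor chains, Il1rl1 (ENSMUSG00000026069, chr1:40429570-40465415, + strand), which encodes ST2, stood at 16.3, 15.4 and 17.1 FPKM in the LPS libraries and at 16.4, 15.1 and 14.6 FPKM in the LPSKD libraries. The groups overlapped. With 630 to 723 fragments per library the log2 fold change was -0.08 with an SE of 0.07 and an interval of -0.25 to 0.09 (limma adjusted p = 0.628; exact permutation p = 0.3). On the linear scale the interval of Il1rl1 ran from -15.9% to 6.2%, above the interval of its ligand Il33, which ended at -29.7%; the difference between the pair was not tested. The membrane form of ST2 and its soluble decoy form come from this gene and were not measured separately.

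Il1r1 (ENSMUSG00000026072, chr1:40225080-40317257, + strand), the signalling receptor of IL-1α and IL-1β, stood at 1.37, 1.28 and 0.852 FPKM against 0.926, 0.672 and 1.34 FPKM. The groups overlapped over most of their range. On 28 to 59 fragments per library the log2 fold change was -0.25 with an SE of 0.32 and an interval of -0.99 to 0.48 (limma adjusted p = 0.748; exact permutation p = 0.6), which is -49.6% to 39.9% on the linear scale.

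Il1rap (ENSMUSG00000022514, chr16:26581704-26730117, + strand) encodes the accessory chain used by both arms. Its level was 3.85, 4.83 and 4.25 FPKM in the LPS libraries and 3.35, 3.27 and 3.01 FPKM in the LPSKD libraries. The groups did not overlap, and all 3 LPSKD libraries were the lower ones. Of all genes tested 23.8% had groups that did not overlap, in either direction. The log2 fold change was -0.41 with an SE of 0.14 and an interval of -0.72 to -0.10, but the adjusted p was 0.167 by limma (exact permutation p = 0.1, the smallest possible), so Il1rap did not pass the test over the whole table. Of its coding stretches of 31 bases 13.3% are shared with Gm20319, an antisense gene, and fragments of the pair cannot be told apart without strand.

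**Figure D3:**
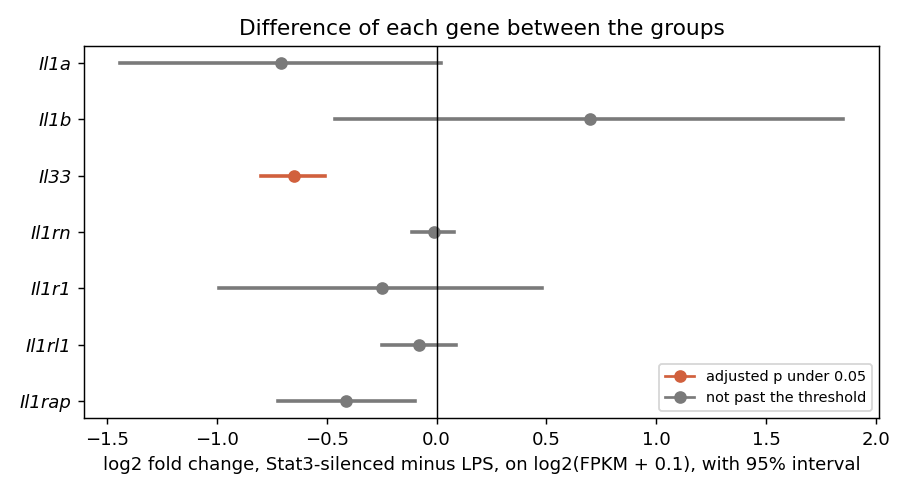
Log2 fold change of each gene on log2(FPKM + 0.1), LPSKD libraries minus LPS libraries, with its 95% interval from limma (n = 3 per group). Il33 (orange), at -0.65, is past the adjusted threshold; the interval of Il1rap also lies below 0 but its adjusted p is 0.167, and the other 5 intervals include 0.

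The genes whose pattern over the 6 libraries was most like that of each member were listed by Pearson r of log2(FPKM + 0.1), as a description, since the points share the groups and their difference. For Il33 these were Ube2c (r = 0.999), which serves the anaphase-promoting complex, Tmem209 (r = 0.998) and the tight junction gene Cldn1 (r = 0.997), and 191 genes had an r of at least 0.95. All 3 were called lower, but by less than Il33: Cldn1 had a log2 fold change of -0.24 (limma adjusted p = 0.00642), Ube2c of -0.20 (limma adjusted p = 0.0099) and Tmem209 of -0.18 (limma adjusted p = 0.0464). For Il1rap they were Ptgs2, the inducible cyclooxygenase, and Fam13b, both at r = 0.997, and the nuclear importer Kpna2 at r = 0.991, of which none was called. For the other members the likest genes reported here were Ttpal, Zfp24 and Slc16a13 for Il1a, S100a4 and Dync1i2 for Il1b, Tef and Mbd1 for Il1rn, Paqr4, Serpinb9g and Fez2 for Il1r1, and Slc6a13, Mtmr1 and Abhd16a for Il1rl1, with r of 0.971 to 0.994 and none of them called.

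Further genes of the pathway were read from lists, beginning with the rest of the IL-1 family. Of its 14 genes 4 reached the mean of 0.5 FPKM and 1 was called, Sigirr, a receptor that restrains IL-1 and IL-33 signalling, beside 1.66% called lower among all genes. Sigirr fell from 58.3, 56.6 and 62.4 FPKM in the LPS libraries to 49.3, 51.1 and 48.6 FPKM in the LPSKD libraries (log2 fold change -0.25, limma adjusted p = 0.0359). That call was lost under 8 of 16 alternatives, with adjusted p between 0.0145 and 0.135. The IL-36α gene, listed under its older symbol Il1f6, stood at 37.1 to 41.9 FPKM, and the IL-18 receptor chain Il18rap at 28.0 to 31.6 FPKM, neither called. Il18, the other cytokine cut by caspase-1, had 1 to 16 fragments per library, and its partner receptor chain Il18r1 stood at 0.459 FPKM or less. The IL-1 decoy receptor Il1r2 reached at most 0.64 FPKM, and Il1f10, Il1rapl1 and Il1rapl2 were listed at 0 in every library.

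Between the receptor and NF-κB, 20 of 22 genes were tested and limma called 0, beside the 3.23% called among all genes; their median log2 fold change was -0.02. In that list 3 of 20 had groups that did not overlap, beside 23.8% among all genes: the kinase subunits Ikbkb and Ikbkg, at log2 fold changes of 0.11 and 0.12, and the ubiquitin ligase Peli2 at -0.59, with adjusted p from limma of 0.267, 0.297 and 0.24. The most abundant were Sqstm1 at 941 to 1011 FPKM, the ubiquitin-conjugating enzyme gene Ube2n at 368 to 435 FPKM and the kinase Chuk at 87.7 to 102 FPKM, all with overlapping groups. The adaptor Myd88 stood at 9.99 to 13.3 FPKM with overlapping groups. At an unadjusted p of 0.05, 2 of the 20 would pass, beside 2058 of all 11723 genes tested. The adjusted count was 0 under all 16 alternatives, voom among them.

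Of 20 genes for processing and release of the ligands, 15 were tested and 1 was called lower, beside 1.66% among all genes, and 6 had groups that did not overlap, beside 23.8% among all genes. The called gene was the lysosomal protease Ctsb, at 210, 209 and 201 FPKM in the LPS libraries against 178, 183 and 179 FPKM (log2 fold change -0.20, limma adjusted p = 0.0189), a call lost under 7 of 16 alternatives. Casp1, which encodes the protease that matures IL-1β, stood at 0.722 to 1.4 FPKM with overlapping groups. The inflammasome genes Nlrp3 and Pycard stayed at or below 0.278 FPKM, and Gsdmd, the pore-forming gasdermin, at 0.274 to 1.11 FPKM. The DNA-sensing inflammasome gene Aim2 was higher in level, at 14.0, 14.5 and 15 FPKM in the LPS libraries and 15.7, 16.1 and 16.9 FPKM in the LPSKD libraries, without overlap, and was not called (log2 fold change 0.16, limma adjusted p = 0.25). The calpain subunits that process IL-1α were well expressed, with Capn2 at 135 to 160 FPKM and Capns1 at 417 to 442 FPKM, neither called. The groups of Capn2 did not overlap, with the LPSKD libraries lower (log2 fold change -0.13, limma adjusted p = 0.195), while those of Capns1 overlapped. Anxa2, at 811 to 838 FPKM, was the most abundant gene of the list and was not called.

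**Figure D4:**
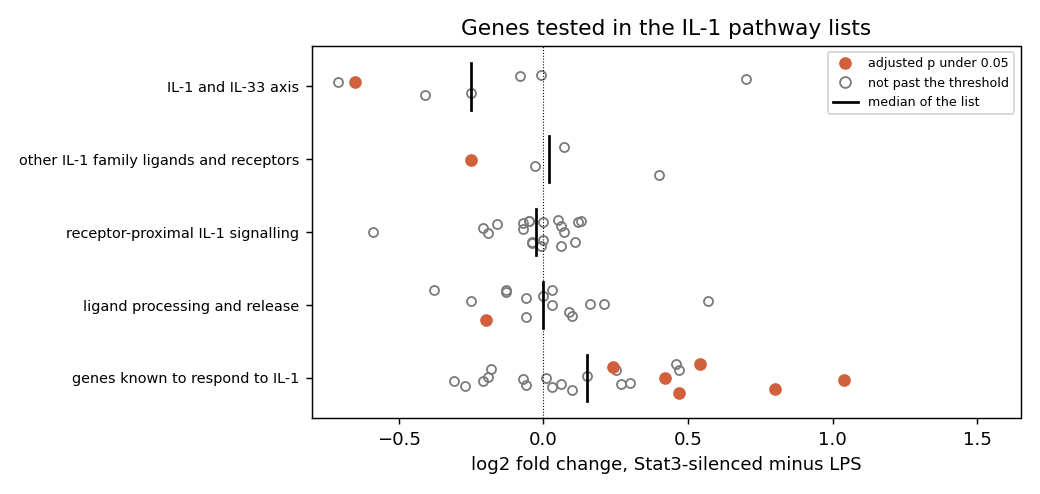
Log2 fold change (LPSKD libraries minus LPS libraries) of each gene tested in the axis and in 4 lists of the IL-1 pathway; filled orange points passed an adjusted p of 0.05 in limma, open grey points did not, and the black line is the median of the list. The calls number 1 of 7, 1 of 4, 0 of 20, 1 of 15 and 6 of 23 from top to bottom, beside 3.23% among all genes tested. The 6 in the lowest row lie above 0, beside 1.57% called higher among all genes.

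Of 30 genes known to respond to IL-1, 23 were tested, 6 were called higher, 0 lower and 17 were not called, beside 1.57% called higher among all genes. The list was chosen with earlier results of these data known, so its shares are a description and not a test. The median log2 fold change of the list was 0.15, against -0.01 for all genes tested. Of the 23 genes, 13 had groups that did not overlap, in either direction, beside 23.8% among all genes. The called genes were the chemokines Ccl20 (log2 fold change 1.04), Cxcl5 (0.80), Cxcl2 (0.54) and Cxcl1 (0.42), which draw neutrophils and lymphocytes, with the iron-binding protein Lcn2 (0.47) and the growth factor Csf1 (0.24), at limma adjusted p of 0.00994 or less. Ccl20 stood at 58.8, 67.2 and 60.5 FPKM in the LPS libraries and at 134, 123 and 126 FPKM in the LPSKD libraries. Cxcl5 stood at 395, 444 and 426 FPKM against 700, 769 and 737 FPKM. Of the 23 genes tested, 16 had a positive and 7 a negative log2 fold change. Ptgs2, also on the list, had a log2 fold change of -0.19 and was not called (limma adjusted p = 0.106), nor was the NF-κB inhibitor gene Tnfaip3 at -0.21 (limma adjusted p = 0.0801). With the opposite sign, Ccl2 at 0.46 (limma adjusted p = 0.0793) and Nfkbia at 0.27 (limma adjusted p = 0.0733) were not called either. Il6 and Tnf were at or below 0.414 FPKM in every library. These genes also respond to LPS itself and to other cytokines, and the part of Il33, Il1a or Il1b in their levels was not tested.

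Markers of other cells were read beside these results, since fewer cells of a type and less RNA per cell cannot be told apart in bulk RNA. Of the 15 leukocyte markers 11 were tested and 1 was called, beside 3.23% among all genes; 6 had a negative and 5 a positive log2 fold change, with a median of -0.04. The called gene was Csf1r, at 22 to 27.4 FPKM in the LPS libraries and 32.7 to 33.8 FPKM in the LPSKD libraries (log2 fold change 0.45, limma adjusted p = 0.0208). The macrophage markers Cd68, at 12.6 to 15 against 9.64 to 12.3 FPKM (log2 fold change -0.30, limma adjusted p = 0.197), and Adgre1 (log2 fold change -0.39, limma adjusted p = 0.593) had the opposite sign and were not called. The summed level of the 15 markers was 185 to 191 FPKM against 200 to 214 FPKM, while Ptprc, which defines leukocytes, stayed at or below 1.08 FPKM. The most abundant of them, Cd14 at 63.1 to 76.2 FPKM and Cd74 at 25.3 to 33.3 FPKM, were not called; Cd14 had groups that did not overlap and lay at the threshold, past it under 4 of 16 alternatives. Markers of mast cells and type 2 lymphocytes, the cells best known to carry ST2, were all under the mean of 0.5 FPKM, with a highest value of 0.603 FPKM and Il13 listed at 0; the highest by mean were Kit, Gata3 and Rora. Of 15 fibroblast and endothelial markers 12 were tested and limma called 0, beside 3.23% among all genes, and voom called 0 as well. At an unadjusted p of 0.05 limma also gave 0, beside 2058 of all 11723 genes tested. Their summed levels were 43.2 to 55.5 FPKM against 30.8 to 58.3 FPKM, with Dcn, Col3a1 and Lum the most abundant. Among the 13 epithelial and tubule markers tested, Aqp1 (log2 fold change 0.93), Pax2 (0.60), Pax8 (0.39) and Cdh16 (0.27) were called higher, beside 1.57% among all genes. Krt18 (-0.15) was called lower, beside 1.66% among all genes, while Krt8 and Krt19 were not called. The 5 calls had a limma adjusted p of 0.0319 or less. Groups did not overlap in 7 of the 13, beside 23.8% among all genes. Pax2 stood at 34.6, 32.3 and 35.0 FPKM against 54.5, 49.1 and 51.5 FPKM. Of the 16 alternatives, the call was lost under 5 for Csf1r, 8 for Krt18, 4 for Aqp1, 3 for Cdh16, 1 for Pax8 and 0 for Pax2. The part of the cells these markers stand for in the difference of Il33 was not tested.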

How the data were processed

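RNA of 6 mTEC cultures was analysed, with groups and replicate numbers taken from the sample titles. The authors deposited FPKM values, 1 per gene and library, without pooling. The submitters' processing notes name Bowtie 0.12.2, HISAT2 2.0 and StringTie 1.3.0 and builds of mouse and human, without roles; gene identifiers were matched to GENCODE M21 (GRCm38), where 22399 of 22442 had a symbol. The 7 members and all gene lists were chosen with earlier results of these data known. That cultures were separate is not stated beyond the sample labels, so p-values measure the spread between these libraries.

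The groups were compared by linear models (limma 3.58.1 under R 4.3.3, moderated with a mean-variance trend, no covariate) of log2(FPKM + 0.1). The filter was a mean of 0.5 FPKM over the 6 libraries, and p-values were adjusted by Benjamini-Hochberg over the 11723 genes that passed, at 0.05. Fold changes on this scale understate those of low genes. The fit was tested on simulated data. Fragments behind each value were recovered from the merged coding length and a library total: 97.8% of 16837 genes above 0 came out whole, within 0.02 fragments, in every library at that length or up to 10 bases more. Replicates differed by more than counting noise (chi-square 4.21 to 11.6 per gene), so none was a repeat deposit. Intervals of counts cover counting error only.

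Besides the members and Stat3, genes are named by rule: in each list those called, at most the 6 with the largest change, and the 3 with the highest mean FPKM, and the 3 genes likest to each member; some genes that the rule covers are not reported here. Myd88, Ikbkb, Ikbkg, Peli2, Aim2, Cd68, Adgre1, Casp1, Nlrp3, Pycard, Gsdmd, Capn2, Il18, Il18r1, Il1r2, Ptprc, Il6, Tnf, Tnfaip3, Ccl2, Nfkbia and the genes listed at 0 were named after their values were seen. Python 3.11.15, pandas 2.3.3, scipy 1.17.1 and matplotlib 3.10.9 served the rest. The study's ChIP-seq, PCR, protein and animal data were not analysed here.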

Additional observations from a re-analysis of the deposited data

How the results depend on the processing

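Il33 was called lower, and no other member was called, in all 16 alternatives: pseudocounts of 1 and 0.01, filters at mean FPKM 1 and 0.1 and none, quantile normalization, median centring, eBayes without trend, the replicate block, voom on recovered fragments, and each library left out. Its log2 fold change stayed between -0.68 and -0.62, with adjusted p of 0.00104 to 0.0149. No member changed sign; Il1rap ranged from -0.49 to -0.33 (adjusted p 0.0867 to 0.358), and Il1b had no value at a mean of 1 FPKM. Il1a, Il1b and Il1r1, the members with the lowest counts, had the values that moved most when 1 library was left out. Il1a went from -0.71 to -0.47 without LPSKD 1, -0.9 without LPS 1 and -0.97 without LPSKD 3. Il1b went from 0.70 to 0.31 without LPS 1 and 0.33 without LPSKD 2 (range 0.31 to 1.02). Il1r1 went from -0.25 to -0.03 without LPSKD 2, -0.13 without LPS 1, -0.45 without LPS 3 and -0.48 without LPSKD 3. The log2 difference of the Il1rn to Il1b ratio, -0.71, was -0.33 without LPS 1 and -0.32 without LPSKD 2 (range -1.04 to -0.32). That of Il1rn to Il1a, 0.69, was 0.46 without LPSKD 1 (range 0.46 to 0.94).

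The number of genes called, 379, was 140 without trend, 213 with the replicate block and 598 by voom, and 158 to 357 with a library left out: 158 without LPS 3, 176 without LPSKD 1, 190 without LPSKD 2 and 168 without LPSKD 3. No shared deviation of same-numbered libraries was seen (correlations of -0.0426 to -0.00388), which does not tell whether those cultures were prepared together. The call in the other IL-1 family genes (Sigirr) went from 1 to 0 with no filter, without trend and with the replicate block, and gave 0 to 1 with a library left out, 0 in each case but that without LPS 2. The call in ligand processing (Ctsb) went from 1 to 0 without trend and with the replicate block, and gave 0 to 1 with a library left out, 0 in each case but that without LPS 1. Without LPSKD 3, Il18rap turned from -0.03 to 0.01 (leave-one-out range -0.08 to 0.01), and with quantile normalization Capns1 turned from 0.03 to -0.01, neither called. Without LPSKD 1, Col3a1, Dcn and Lum, none of them called, turned to 0.15, 0.01 and 0.15 (lowest with a library left out: -0.31, -0.35 and -0.38). The cause was not tested. The number of IL-1-responsive genes called, 6, was between 5 and 9 under the alternatives. The 5 epithelial markers called became 1 without trend, and 2, 3 and 2 without LPS 3, LPSKD 2 and LPSKD 3; the leukocyte count of 1 ranged from 0 to 2, and was 0 without LPS 3 or without any 1 of the LPSKD libraries.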
